A study of Homo sapiens with 15 samples.

Results

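The CPT1 isoforms, the PPARs, the PGC-1 coactivators and PDK4 were followed in 2 human clear cell renal cell carcinoma (ccRCC) lines with and without ANGPTL4, a secreted lipase inhibitor that is itself a PPAR target gene. The 10 genes were taken by symbol from the deposited expression tables, which hold 16296 genes for CAKi-1 and 16188 for 786O, and all 10 were present in both. They are CPT1A, CPT1B, CPT1C and CPT2, which carry long-chain fatty acids into mitochondria, the nuclear receptors PPARA, PPARD and PPARG, the coactivators PPARGC1A and PPARGC1B, and PDK4. The comparison asks how this fatty acid oxidation programme differed after loss of ANGPTL4, which isoform of each family made up its transcripts, and whether PDK4 moved with the receptors and coactivators that are known to drive it.

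Long-chain fatty acids cross into mitochondria as acylcarnitines. CPT1 on the outer membrane makes the acylcarnitine, is held back by malonyl-CoA and sets the pace of oxidation, and CPT2 on the inner membrane turns it back into acyl-CoA. PPARs bind DNA with a retinoid X receptor at repeats of a short half-site and switch on genes of fatty acid use, PGC-1 coactivators raise their output, and PDK4 phosphorylates and blocks pyruvate dehydrogenase, so that less glucose carbon is burned when fat is available. Fatty acid oxidation is a main energy source of the renal tubule, the tissue from which ccRCC arises.

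CAKi-1, which carries WT VHL, gave 4 WT and 5 A4KO (ANGPTL4 KO) libraries, and 786O, which carries mutant VHL, gave 3 WT and 3 A4KO libraries. Both lines had been transfected with Cas9 and a single guide RNA to ANGPTL4, clones that had lost the transcript were pooled as A4KO cells, and clones that had kept it were pooled as WT cells per the series description, whereas the study's methods name parental cells as CAKi-1 WT. Per the labels all cells grew in RPMI with serum, whereas the study's methods name DMEM, and they were harvested in log phase, and poly(A) RNA was sequenced. The replicate numbers are not stated to be separate cultures, so p-values measure the spread between these libraries, which may be technical. In such pools a lower value can mean fewer cells that express a gene or less RNA per cell, and these cannot be told apart.

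Values are in TPM, a transcript unit scaled for gene length and library size, so levels of different genes can be compared. ANGPTL4 stood at 79.2 ± 7.06 TPM in CAKi-1 WT (SD, n = 4) and 4.47 ± 2.20 TPM in A4KO (n = 5), and at 18.8 ± 1.58 and 2.07 ± 0.185 TPM in 786O (n = 3 each), with no overlap. CAKi-1 KO 1 and KO 4 stood apart: the median absolute difference in log2(TPM + 1) over genes was 0.079 between them and 0.085 to 0.10 among KO 2, 3 and 5, but 0.20 to 0.23 across these sets. For 7 of the 10 genes KO 1 and KO 4 lay both above or both below the other KO libraries, as for 59.95% of all CAKi-1 genes, and these libraries also held more ANGPTL4, at 7.26 and 6.47 TPM against 2.87 to 2.90 TPM in KO 2, 3 and 5. Calls and list counts in CAKi-1 are also given below with KO 2, 3 and 5 only where these differ. This split comes from the same values and not from the labels, so p-values from either set alone are not independent evidence. PAX8, a renal lineage factor, was at 172 TPM in CAKi-1 WT and 231 TPM in 786O WT, while the muscle factors MYOD1 and MYOG were in neither table and every adipocyte marker found lay under 1 TPM in all libraries. PAX2 and CA9 were not listed for CAKi-1. Summed fibroblast markers, 5 of 6 listed genes in CAKi-1, were at 24.2 to 34.0 TPM in WT and 48.4 to 72.5 TPM in KO, mostly from COL1A1 and PDGFRB, and summed renal epithelial markers, 7 of 8, at 2231 to 3083 and 786 to 1239 TPM, mostly from KRT8 and KRT18. Summed clear cell carcinoma markers were also lower in KO, at 3470 to 3754 TPM in WT and 2514 to 2998 TPM in KO of CAKi-1 (3 of 4 listed genes) and at 5252 to 5443 and 3710 to 3761 TPM in 786O (4 of 4), as were the renal epithelial markers of 786O (8 of 8), at 1200.1 to 1212 and 939 to 948 TPM. Endothelial markers of CAKi-1 (2 of 4, VWF and CDH5 not listed) summed to 0.695 to 1.05 TPM in WT and 1.89 to 6.5 in KO. The rise was that of PECAM1 (means of 0.36 and 3.29 TPM), while CD34 was lower in KO (0.525 and 0.388 TPM). The leukocyte sum of 786O, nearly all CD68, was 42.8 to 44.1 TPM in WT and 20.2 to 21.5 TPM in KO. The part of these shifts in the results was not tested.

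RefSeq start sites (GRCh38.p14) were matched for 9 of the 10 genes, with 18 start sites between them, and CPT1B was not matched. The 250 bases before a start are printed for 3 genes: PDK4, as the target gene, PPARD, as the receptor with the largest difference below, and PPARG, the one gene with a PPAR half-site (AGGTCA, in capitals). They lie at chr7:95596517-95596766 (minus strand), chr6:35342308-35342557 (plus) and chr3:12287118-12287367 (plus), read 5′ to 3′ toward the gene, and part of the PDK4 window is also exon of the antisense RNA PDK4-AS1.
PDK4: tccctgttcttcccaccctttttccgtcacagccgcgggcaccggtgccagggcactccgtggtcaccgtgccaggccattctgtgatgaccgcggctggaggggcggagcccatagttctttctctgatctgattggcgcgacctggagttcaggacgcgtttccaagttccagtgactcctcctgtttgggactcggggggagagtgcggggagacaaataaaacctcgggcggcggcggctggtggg
PPARD: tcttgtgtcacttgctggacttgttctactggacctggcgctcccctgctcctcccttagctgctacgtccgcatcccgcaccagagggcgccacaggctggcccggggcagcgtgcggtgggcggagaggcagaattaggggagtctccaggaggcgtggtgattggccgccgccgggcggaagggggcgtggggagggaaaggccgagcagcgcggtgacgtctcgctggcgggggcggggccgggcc
PPARG: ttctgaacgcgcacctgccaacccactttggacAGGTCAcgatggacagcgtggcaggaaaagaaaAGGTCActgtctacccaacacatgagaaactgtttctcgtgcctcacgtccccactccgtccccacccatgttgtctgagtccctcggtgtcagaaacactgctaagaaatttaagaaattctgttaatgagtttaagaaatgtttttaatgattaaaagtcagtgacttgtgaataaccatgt
The half-sites in this PPARG window end 212 and 179 bases before the start. AGGTCA, searched on both strands, was present in 12.08% of 35116 RefSeq promoter windows of this length. The half-site repeated after any 1 base (0.017% of windows), the ERR element TCAAGGTCA (0.319%), the cAMP response element TGACGTCA (1.646%) and the FOXO element GTAAACA (2.979%) were in none of the 18 windows, and the first and the ERR element contain AGGTCA. Not every window lay at the annotated start of its gene. For PPARGC1A, 1 window lay outside the gene (chr4:24472906-24473155) and 1 within it (chr4:23881102-23881351). The PPARGC1B window lay within its gene (chr5:149771690-149771939). Some starts matched no GENCODE transcript, so a motif absent here can be present in another promoter of the gene. Such matches are letters in a window and not bound sites.

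Loss of ANGPTL4 went with a higher PPARGC1A, a lower PPARGC1B and a higher PDK4 in both lines, while CPT1B and PPARD rose in CAKi-1 and fell in 786O. In CAKi-1, 8 of the 10 genes passed limma's test at an adjusted p of 0.05 (6 higher and 2 lower), against 39.0% of all genes (17.9% higher and 21.1% lower). Without WT 4 only 5 passed, against 33.8% of all genes. With KO 2, 3 and 5 only, 7 passed, against 38.8% of all genes, and with KO 1 and 4 only 9, against 53.7%. One of them, CPT1B, also passed an absolute log2 fold change of 1 and was higher, as were 2.21% of all genes (3.33% in either direction). In 786O, 7 passed (4 higher and 3 lower), against 61.0% of all genes (27.5% higher and 33.5% lower), a share near this background. The fold limit was passed by 4 genes in 786O, against 7.62% of all genes. These were CPT1A and PPARGC1A, which were higher (2.43% of all genes), and CPT1B and PPARD, which were lower (5.19%). The KO and WT libraries did not overlap for 7 genes in each line, against 35.9% of all genes in CAKi-1 and 66.9% in 786O. The median log2 fold change of the 10 genes was 0.34 in CAKi-1 and -0.07 in 786O, beside -0.01 and -0.03 over all genes. Fold changes here are on the log2(TPM + 1) scale, which understates differences of genes near or under 1 TPM. With no pseudocount they were 1.96 and 2.54 for PPARGC1A, -0.69 and -1.65 for PPARGC1B and 0.91 and 0.89 for PDK4 in CAKi-1 and 786O, and all of these passed limma's test.

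**Figure D1:**
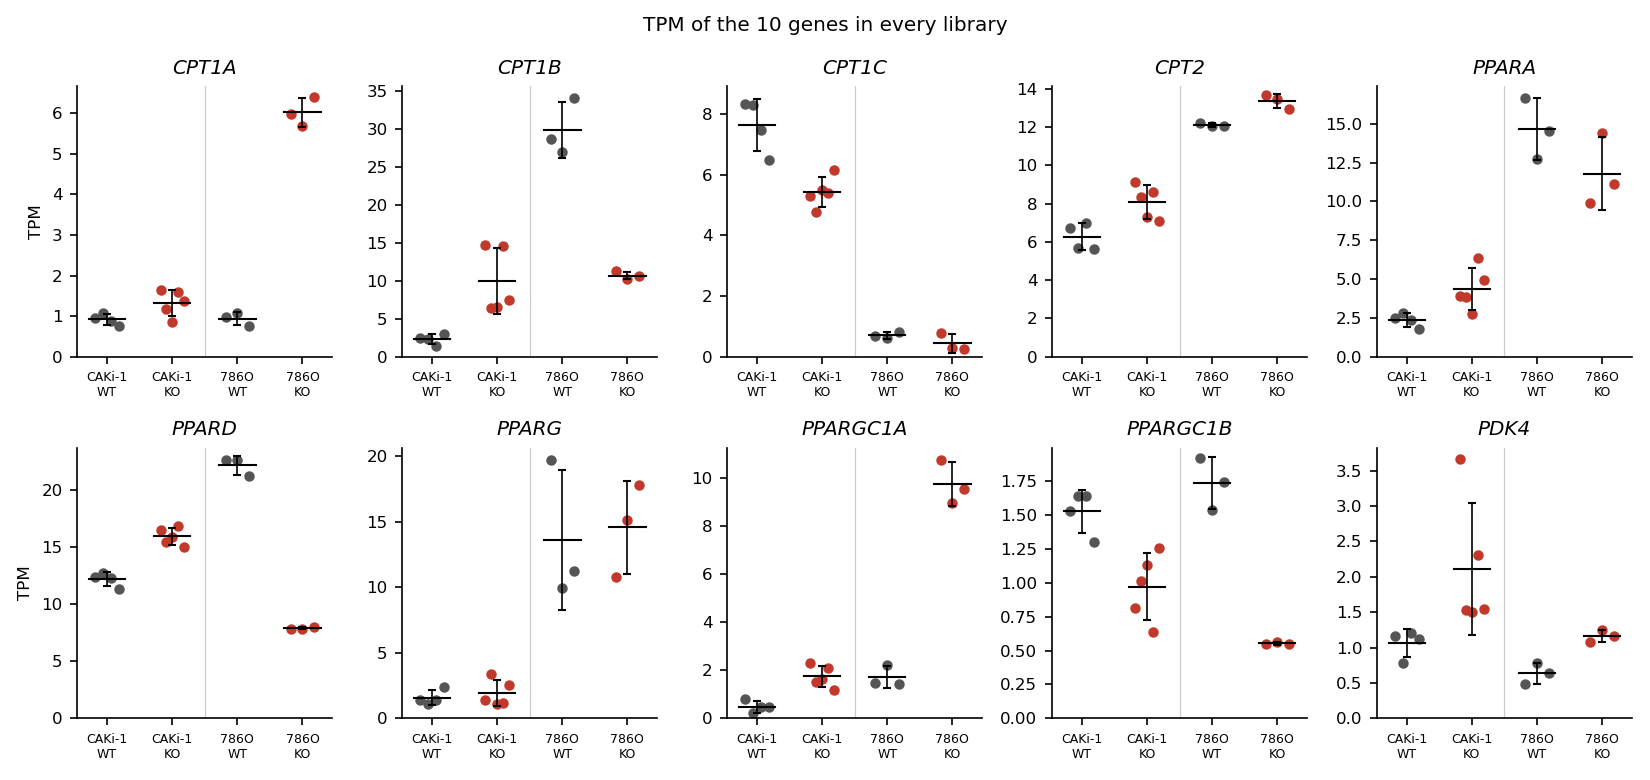
TPM of each gene (y axis, linear from 0) in every library, as points, for WT and KO of CAKi-1 (n = 4 and 5) and 786O (n = 3 and 3), with the mean as a bar and SD as error bars. CPT1A and PPARGC1A in 786O, with KO means of 6.02 and 9.75 TPM, and CPT1B, higher in CAKi-1 KO and lower in 786O KO, stand clear of their WT libraries.

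Among the CPT1 isoforms, CPT1B (chr22:50568861-50578465, minus strand), the isoform of muscle, moved in opposite directions. Summed muscle markers were at most 3.03 TPM in any library. CPT1B was at 2.49, 2.30, 1.42 and 2.97 TPM in CAKi-1 WT 1 to 4 and at 14.8, 6.44, 6.5, 14.6 and 7.53 TPM in KO 1 to 5. Every KO library was above every WT library, and KO 1 and KO 4 held about double the level of the others. The mean was 4.34 times that of WT (log2 fold change 1.67 ± 0.27, SE, limma adjusted p = 0.0015), and with KO 2, 3 and 5 only the log2 fold change was 1.27 (limma adjusted p = 0.00084). In 786O it was at 28.7, 27 and 34.1 TPM in WT against 11.2, 10.2 and 10.7 TPM in KO. Here all KO libraries were below all WT libraries (log2 fold change -1.40 ± 0.09, limma adjusted p = 3.5e-05). The 30 expressed genes beside it on chromosome 22 also shifted, by a median of -0.47 in 786O, and with that shift taken off the log2 fold change was -0.93 (limma adjusted p = 0.00024), inside the fold limit. Mean levels were 2.30 ± 0.647 TPM in WT and 9.97 ± 4.33 TPM in KO of CAKi-1 and 29.9 ± 3.68 and 10.7 ± 0.519 TPM in 786O. No CAKi-1 KO library lay within the 786O KO range, KO 1 and KO 4 being above it and KO 2, 3 and 5 below.

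The read-through gene CHKB-CPT1B (chr22:50568869-50582965) overlaps CPT1B and has its own row, so reads could be split between them. It averaged 0.721 TPM in CAKi-1 WT and 3.17 TPM in KO (log2 fold change 1.25, limma adjusted p = 0.0011), and 9.50 and 3.13 TPM in 786O (log2 fold change -1.36, limma adjusted p = 0.0018). It moved the same way as CPT1B in each line. The upstream gene CHKB, a choline kinase, averaged 8.92 TPM in CAKi-1 WT and 14.1 TPM in KO, and 28.8 and 24.5 TPM in 786O, and both differences passed the test (limma adjusted p = 0.014 and 0.020). In 786O the sign of CHKB changed with the neighbours' shift of -0.49 taken off, from a log2 fold change of -0.23 to 0.26 (limma adjusted p = 0.0035). CHKB-CPT1B stayed lower (-0.91, limma adjusted p = 0.0095). The cause of the neighbours' shift was not tested.

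CPT1A (chr11:68754620-68844410, minus strand), the isoform of liver and kidney, was near 1 TPM in WT of both lines. In 786O it stood at 0.976, 1.07 and 0.767 TPM in WT against 5.99, 5.69 and 6.39 TPM in KO. The KO mean was 6.42 times the WT mean with no overlap (log2 fold change 1.86 ± 0.07, limma adjusted p = 5e-06). In CAKi-1 it was at 0.957, 1.09, 0.875 and 0.769 TPM in WT against 1.64, 1.17, 0.859, 1.61 and 1.38 TPM in KO. KO 3 fell inside the WT range and the other KO libraries lay above it. The log2 fold change of 0.27 ± 0.11 did not pass (limma adjusted p = 0.072), although it did without KO 3 (0.35, limma adjusted p = 0.011), with KO 1 and 4 only (0.45, limma adjusted p = 0.0028) and with the shift of its chromosomal neighbours taken off (0.49, limma adjusted p = 0.0044). It did not pass without any other single library (limma adjusted p = 0.080 to 0.17), with KO 2, 3 and 5 only (0.15, limma adjusted p = 0.26) or after quantile normalization (0.17, limma adjusted p = 0.15).

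CPT1C (chr19:49690898-49713731, plus strand), the brain isoform of the endoplasmic reticulum with little known transferase activity, was the most abundant CPT1 transcript in CAKi-1 WT. It fell from 8.33, 8.28, 7.47 and 6.49 TPM in WT to 5.30, 4.77, 5.51, 5.41 and 6.16 TPM in KO. All KO libraries were below the WT range (log2 fold change -0.42 ± 0.08, limma adjusted p = 0.0038). In 786O it was under 1 TPM in every library, at 0.684, 0.606 and 0.833 TPM in WT and 0.796, 0.279 and 0.257 TPM in KO. KO 1 lay within the WT range and the fold change did not pass (limma adjusted p = 0.17), but it did without KO 1 (log2 fold change -0.43, limma adjusted p = 0.0039). With neighbour shifts taken off the value was -0.013 (limma adjusted p = 0.95).

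CPT2 (chr1:53196792-53214197, plus strand), the partner enzyme of the inner membrane, differed by small amounts. It was at 6.74, 5.68, 7 and 5.64 TPM in CAKi-1 WT and 9.10, 8.34, 7.29, 8.58 and 7.09 TPM in KO, and at 12.2, 12.0 and 12.1 TPM in 786O WT and 13.7, 13.4 and 13.0 TPM in KO. KO libraries were above WT libraries in both lines. The log2 fold change was 0.32 in CAKi-1 (limma adjusted p = 0.019) and 0.13 in 786O (limma adjusted p = 0.019). The call was lost in CAKi-1 with KO 2, 3 and 5 only (limma adjusted p = 0.068), without WT 2 (0.059) or WT 4 (0.054), and with the neighbours' shift taken off (0.11). In 786O it was lost without WT 2, WT 3, KO 1 or KO 2 (limma adjusted p = 0.051 to 0.062), and quantile normalization raised the log2 fold change to 0.24.

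As shares of the summed CPT1 TPM, the isoforms changed places in CAKi-1. CPT1B made up 21.1% ± 5.99 in WT (SD, n = 4) and 57.6% ± 9.33 in KO (n = 5), and CPT1C 70.4% ± 5.35 and 34.3% ± 8.91. CPT1A stayed between 6.67% and 9.46% of the sum in all 9 libraries. The shares of CPT1B and CPT1C did not overlap between groups (two-sided p = 0.016 by an exact permutation test, the least these groups allow, and 0.063 after Benjamini-Hochberg adjustment over 16 shares). In 786O, CPT1A went from 3.03% ± 0.805 in WT to 35.1% ± 1.84 in KO (n = 3 each), and CPT1B from 94.7% ± 0.699 to 62.4% ± 0.743, with no overlap (exact p = 0.10, the smallest possible). The summed CPT1 level was 10.9 TPM in CAKi-1 WT and 16.7 TPM in KO, and 31.6 and 17.2 TPM in 786O. After CPT1B, the largest part of the KO sum was CPT1C in CAKi-1 and CPT1A in 786O.

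**Figure D2:**
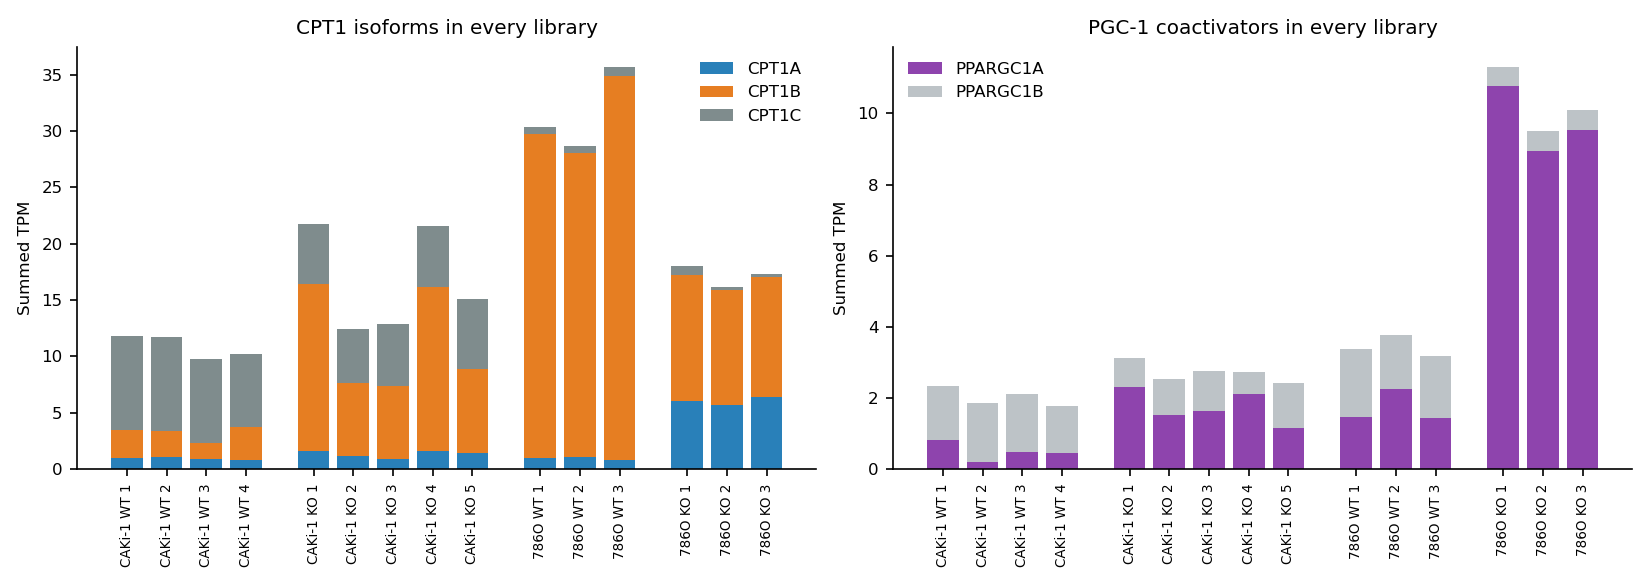
Summed TPM (y axis, from 0) of the CPT1 isoforms (left) and the PGC-1 coactivators (right) in each of the 15 libraries (x axis), stacked by gene. CPT1B makes up 57.6% of the CPT1 sum in CAKi-1 KO against 21.1% in WT, CPT1A 35.1% in 786O KO against 3.03% in WT, and PPARGC1A 94.6% of the PGC-1 sum in 786O KO.

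Of the receptors, PPARD (chr6:35342558-35428191, plus strand), the widely expressed PPAR, showed the clearest difference between the lines. Its CAKi-1 values were 12.4, 12.8, 12.3 and 11.4 TPM in WT and 16.5, 15.5, 15.9, 16.9 and 15 TPM in KO. All KO libraries were higher, by a log2 fold change of 0.36 ± 0.05 (limma adjusted p = 0.00081). In 786O its values were 22.7, 22.7 and 21.2 TPM in WT and 7.86, 7.84 and 8.04 TPM in KO, so WT held 2.80 times the KO mean (log2 fold change -1.38 ± 0.04, limma adjusted p = 1.9e-06).

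PPARA (chr22:46150521-46243755, plus strand), the receptor that drives fatty acid oxidation in liver and kidney, was at 2.47, 2.82, 2.38 and 1.76 TPM in CAKi-1 WT and 3.88, 3.88, 2.74, 6.34 and 4.95 TPM in KO. KO 3 overlapped the WT range and KO 4 was highest. The mean was 1.85 times that of WT (log2 fold change 0.65 ± 0.18, limma adjusted p = 0.019), a call that was lost without WT 4 (0.055). In 786O, with 16.7, 12.7 and 14.5 TPM in WT and 9.88, 14.4 and 11.1 TPM in KO, the groups overlapped and the difference did not pass (log2 fold change -0.30 ± 0.15, limma adjusted p = 0.13), although it did without KO 2 (-0.44, limma adjusted p = 0.027). With the shift of its neighbours taken off the value was -0.061 (limma adjusted p = 0.73), and after quantile normalization -0.19 (limma adjusted p = 0.29).

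PPARG (chr3:12287368-12434356, plus strand), the receptor of adipocytes, varied among replicates more than between groups. It ranged from 1.06 to 2.40 TPM in CAKi-1 WT and from 1.09 to 3.37 TPM in KO, and from 9.92 to 19.7 TPM and 10.8 to 17.8 TPM in 786O. Neither line passed the test (limma adjusted p = 0.66 and 0.74). With PPARD lower, the PPAR sum in 786O was 50.5 ± 7.51 TPM in WT and 34.3 ± 5.00 TPM in KO. The PPARD share was 44.5% ± 5.83 and 23.4% ± 3.60, and the PPARG share 26.4% ± 6.13 and 42.1% ± 5.40 (n = 3 each, exact p = 0.10 for both). In CAKi-1 the sum was 16.1 ± 0.468 TPM in WT and 22.2 ± 1.68 TPM in KO, and PPARD held between 66.8% and 80.6% of it in every library.

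The PGC-1 coactivators moved apart in both lines. PPARGC1A (PGC-1α, chr4:23755041-23904089, minus strand), the coactivator induced by fasting and exercise, was at 0.805, 0.209, 0.467 and 0.458 TPM in CAKi-1 WT and 2.30, 1.51, 1.64, 2.10 and 1.17 TPM in KO. In 786O it was at 1.46, 2.24 and 1.42 TPM in WT and 10.8, 8.95 and 9.55 TPM in KO. Groups did not overlap in either line, and KO means were 3.60 and 5.71 times those of WT. The log2 fold changes were 0.88 ± 0.14 in CAKi-1 (limma adjusted p = 0.0015) and 2.0 ± 0.13 in 786O (limma adjusted p = 3.4e-05), and 0.73 in CAKi-1 with KO 2, 3 and 5 only (limma adjusted p = 0.0047).

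PPARGC1B (PGC-1β, chr5:149730298-149855022, plus strand), its relative, which also supports mitochondrial biogenesis, went the other way. It was at 1.53, 1.64, 1.64 and 1.30 TPM in CAKi-1 WT and 0.816, 1.01, 1.13, 0.635 and 1.25 TPM in KO, and at 1.92, 1.54 and 1.75 TPM in 786O WT and 0.545, 0.565 and 0.547 TPM in KO. All KO libraries were below all WT libraries, although in CAKi-1 KO 5 was just under WT 4. Its log2 fold change was -0.37 ± 0.10 in CAKi-1 (limma adjusted p = 0.015), -0.82 ± 0.06 in 786O (limma adjusted p = 5e-05) and -0.24 in CAKi-1 with KO 2, 3 and 5 only (limma adjusted p = 0.023). The ratio of PPARGC1A to PPARGC1B was 0.32 ± 0.17 in CAKi-1 WT and 2.0 ± 1.01 in KO, and 1.01 ± 0.386 and 17.7 ± 1.95 in 786O. As a share of the PGC-1 sum, PPARGC1A was 23.5% ± 9.64 and 63.6% ± 11.7 in CAKi-1 (exact permutation p = 0.016, the smallest possible, adjusted 0.063) and 49.1% ± 8.83 and 94.6% ± 0.557 in 786O (exact p = 0.10, the smallest possible).

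**Figure D3:**
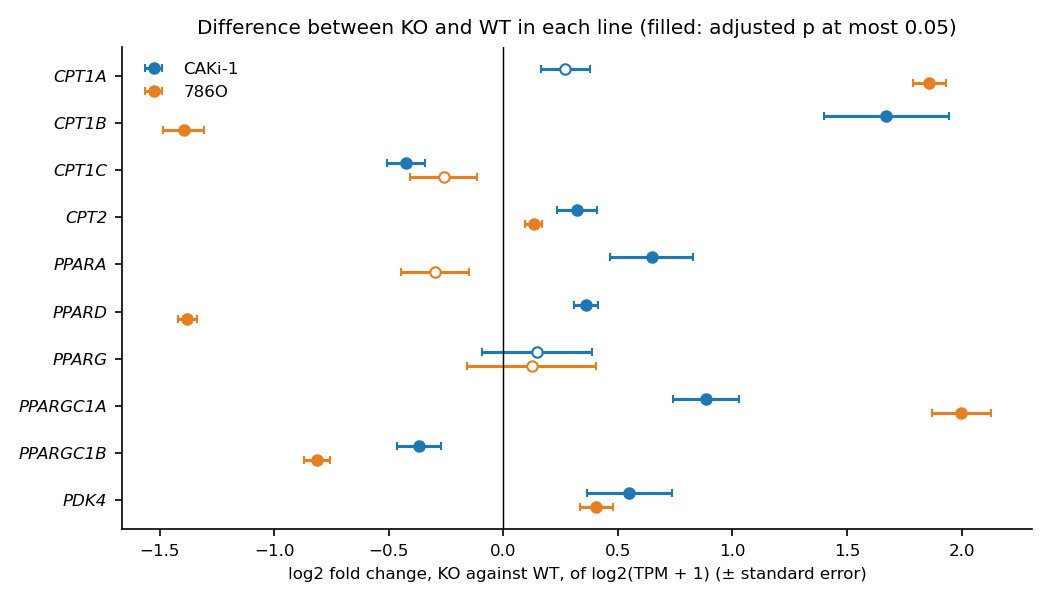
Log2 fold change of log2(TPM + 1), KO against WT (x axis), with its standard error, for each gene (y axis) in CAKi-1 and 786O, filled where limma's adjusted p was at most 0.05. CPT1B (1.67 and -1.40) and PPARD (0.36 and -1.38) lie on opposite sides of 0, while PPARGC1A, PPARGC1B, CPT2 and PDK4 lie on the same side in both lines.

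PDK4 (chr7:95583499-95596516, minus strand) was low in all libraries and higher in KO. It was at 1.16, 0.782, 1.2 and 1.12 TPM in CAKi-1 WT and 3.67, 1.54, 1.5, 2.31 and 1.54 TPM in KO, and at 0.489, 0.782 and 0.643 TPM in 786O WT and 1.08, 1.25 and 1.16 TPM in KO. No KO library fell in the WT range of its line, and the highest CAKi-1 value was that of KO 1. Means were 1.98 and 1.83 times those of WT, and the log2 fold change was 0.55 ± 0.18 in CAKi-1 (limma adjusted p = 0.040) and 0.41 ± 0.07 in 786O (limma adjusted p = 0.0033). The CAKi-1 call was lost when any WT library or KO 4 was left out (limma adjusted p = 0.067 to 0.11) and after quantile normalization (0.051). With KO 2, 3 and 5 only the log2 fold change was 0.29 (limma adjusted p = 0.020), and with KO 1 and 4 only it was 0.93 (limma adjusted p = 0.0029).

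Set beside its regulators, PDK4 went with PPARGC1A in direction in both lines, opposite to PPARGC1B in both (-0.37 and -0.82), and with PPARA and PPARD in CAKi-1 but not in 786O, where PDK4 rose while PPARD fell and PPARA and PPARG did not pass. On the log2(TPM + 1) scale PPARGC1A differed by 0.88 in CAKi-1 and 2.0 in 786O and PDK4 by 0.55 and 0.41, and with no pseudocount PPARGC1A by 1.96 and 2.54 and PDK4 by 0.91 and 0.89. With no pseudocount the difference between the lines passed for neither (PPARGC1A -0.58, limma adjusted p = 0.36, and PDK4 0.017, limma adjusted p = 0.98). Among CAKi-1 KO libraries, KO 1 and KO 4, which held the most ANGPTL4, were the highest in both PDK4 and PPARGC1A, and PPARA was highest in KO 4 and KO 5. KO 1 and KO 4 lay together above or below the other KO libraries for 59.95% of all CAKi-1 genes. Among 786O KO libraries PDK4 was highest in KO 2, where PPARGC1A was lowest, over a narrow range of 1.08 to 1.25 TPM. With 3 to 5 libraries in a group no correlation was computed.

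**Figure D4:**
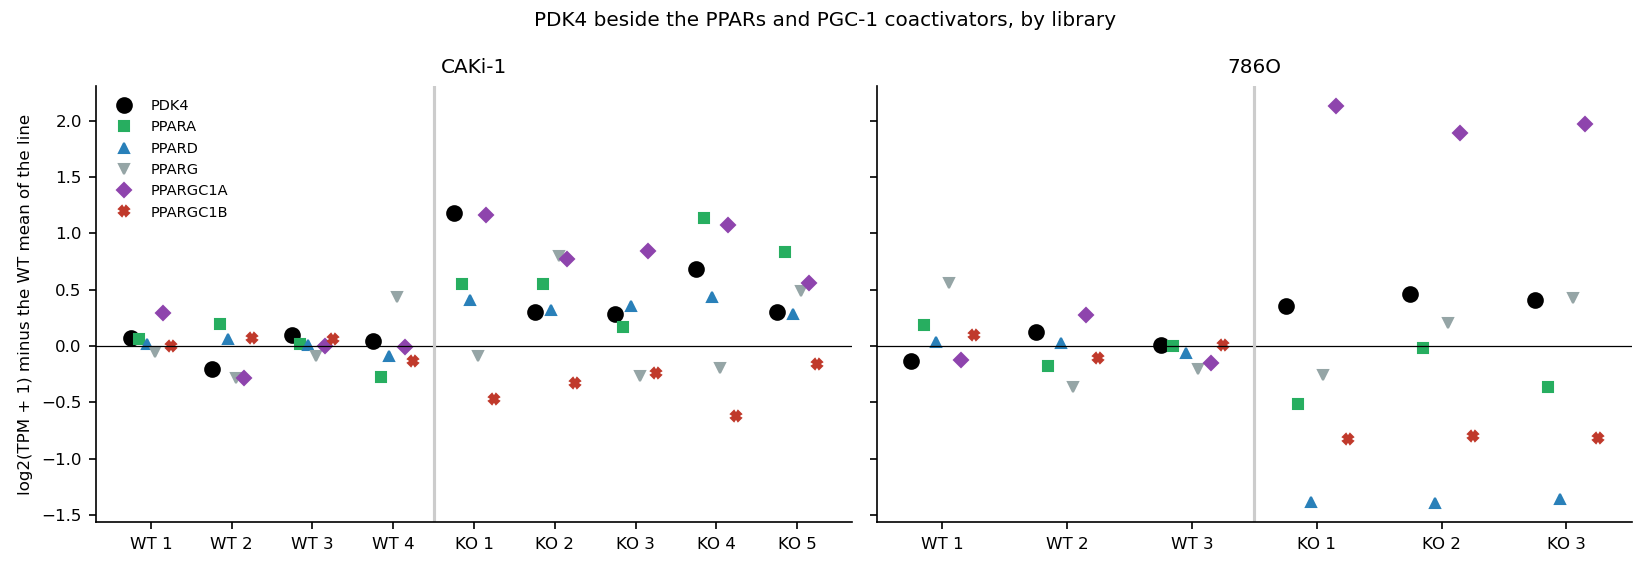
Log2(TPM + 1) minus the WT mean of the line (y axis) for PDK4 and its regulators in each library (x axis) of CAKi-1 and 786O. PDK4 and PPARGC1A lie above 0 in all KO libraries of both lines, while PPARD is above 0 in CAKi-1 KO and near -1.38 in 786O KO.

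The other kinases of pyruvate dehydrogenase did not all follow PDK4. PDK2, the most abundant, was higher in KO of both lines, from 24.1 to 28.8 TPM in CAKi-1 (limma adjusted p = 0.044, but 0.11 with KO 2, 3 and 5 only and 0.051 with neighbour shifts taken off) and from 22.4 to 37.3 TPM in 786O (log2 fold change 0.71, limma adjusted p = 1.6e-05). PDK1, the kinase induced by hypoxia, fell in 786O (log2 fold change -0.39, limma adjusted p = 0.0018) and did not pass in CAKi-1 with all libraries (-0.24, limma adjusted p = 0.17), although it was lower there with KO 2, 3 and 5 only (-0.43, limma adjusted p = 0.0015). PDK3 did likewise (-0.29, limma adjusted p = 0.011 in 786O, and -0.27, limma adjusted p = 0.27 in CAKi-1), and was also lower with KO 2, 3 and 5 only (-0.49, limma adjusted p = 0.036). PDK4 was a small part of the kinase transcripts, at 2.63% ± 0.445 in CAKi-1 WT and 4.69% ± 1.38 in KO, and 1.61% ± 0.332 and 2.29% ± 0.184 in 786O.

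When the effect of the knockout was compared between the lines over 15247 shared genes, 6 of the 10 genes passed, against 55.1% of all genes, a share near the background. The difference (CAKi-1 minus 786O, log2 scale) was 3.07 ± 0.36 for CPT1B (limma adjusted p = 8.4e-06), 1.74 ± 0.07 for PPARD (limma adjusted p = 2.9e-10), -1.59 ± 0.15 for CPT1A (limma adjusted p = 9.6e-07) and 0.95 ± 0.27 for PPARA (limma adjusted p = 0.0082). PPARGC1A differed by -1.12 ± 0.22 (limma adjusted p = 0.00061) and PPARGC1B by 0.45 ± 0.13 (limma adjusted p = 0.010). For PPARGC1A this rests on the pseudocount, since with 0.1 in place of 1 the difference was -0.75 (limma adjusted p = 0.15), and with none -0.58 (0.36). For PPARGC1B it was lost after quantile normalization (0.16, limma adjusted p = 0.40). CPT1C, CPT2, PPARG and PDK4 did not pass. Of all shared genes, 4.95% passed as higher in both lines, as CPT2, PPARGC1A and PDK4 did, 7.08% as lower in both, as PPARGC1B did, and 16.0% in opposite directions, as CPT1B and PPARD did.

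The other genes of the pathway moved in both directions, and the lists below share some genes. Their counts stand beside the 39.0% of all genes that passed in CAKi-1 and the 61.0% in 786O, and list counts with KO 2, 3 and 5 only beside 38.8%. Of 18 beta-oxidation enzymes, 3 were higher and 5 lower in CAKi-1 KO, and 6 were higher and 7 lower in 786O KO, with median log2 fold changes of -0.06 and 0.05. ECHS1 and ECI1, which act on enoyl-CoA, fell in CAKi-1 (-0.49 and -0.34) and rose in 786O (0.90 and 0.65), whereas the isomerase ECI2 fell in both (-0.65 and -0.79). With the shift of chromosomal neighbours taken off, the call of ECI1 was lost in CAKi-1 (-0.08, limma adjusted p = 0.27), while ECI1 in 786O (0.37), ECHS1 in CAKi-1 (-0.28) and ECI2 in 786O (-0.46) were smaller and still passed. The electron carrier gene ETFA rose by 0.87 in 786O. All of these passed limma's test. None of the 18 passed the fold limit, and with CAKi-1 KO 2, 3 and 5 only, 0 were higher and 5 lower by limma's test. Among 7 genes of CPT1 control and the carnitine shuttle, 2 were lower in CAKi-1 and 3 were higher and 2 lower in 786O, and with KO 2, 3 and 5 only the CAKi-1 counts were 0 and 2. ACACB, whose product makes the malonyl-CoA that holds back CPT1, fell in 786O from 6.10 to 3.00 TPM (log2 fold change -0.82, limma adjusted p = 0.0012). MLYCD, which degrades malonyl-CoA, rose there from 2.34 to 3.66 TPM (0.49, limma adjusted p = 0.014), a call lost with the shift of its neighbours taken off (0.21, limma adjusted p = 0.16). In CAKi-1 it was ACACA, the isoform of fatty acid synthesis, that fell, from 42.6 to 33.8 TPM (log2 fold change -0.33, limma adjusted p = 0.023), and by less with KO 2, 3 and 5 only (-0.19, limma adjusted p = 0.013).

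Of the genes for fatty acid uptake and activation, 6 of 13 passed in CAKi-1 (3 in each direction) and 9 of 11 in 786O (6 higher and 3 lower). ACSL4, which activates polyunsaturated fatty acids, rose in CAKi-1 from 97.3 to 265 TPM (log2 fold change 1.28, limma adjusted p = 0.019), and ACSL5 fell from 13.2 to 6.08 TPM (-1.0). With KO 2, 3 and 5 only, ACSL4 was higher by 0.72 (limma adjusted p = 0.0066), and 3 genes of the list were higher and 1 lower. In 786O, ACSL1 rose from 25.8 to 51.7 TPM (0.98, and 0.63 with neighbour shifts taken off) and ACSL5 from 2.02 to 4.42 TPM (0.84).

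Among known PPAR target genes other than the members, 7 of 26 passed in CAKi-1 (5 higher and 2 lower) and 18 of 26 in 786O (11 higher and 7 lower), with medians of 0.08 and 0.02. With KO 2, 3 and 5 only, 3 were higher and 3 lower in CAKi-1. UCP2, a mitochondrial carrier, and EHHADH, a peroxisomal oxidation enzyme, rose in 786O (1.2 and 1.0), where G0S2, an inhibitor of the lipase ATGL, fell from 72.3 to 19.0 TPM (-1.88). TXNIP, a glucose-sensing regulator of glucose uptake, rose in CAKi-1 from 48.3 to 115 TPM (1.16) and fell in 786O from 49.9 to 7.94 TPM (-2.51). All of these passed limma's test, and with KO 2, 3 and 5 only TXNIP was higher in CAKi-1 by 0.78 (limma adjusted p = 0.00093). FABP3 was higher in both lines (0.38 and 0.95).

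**Figure D5:**
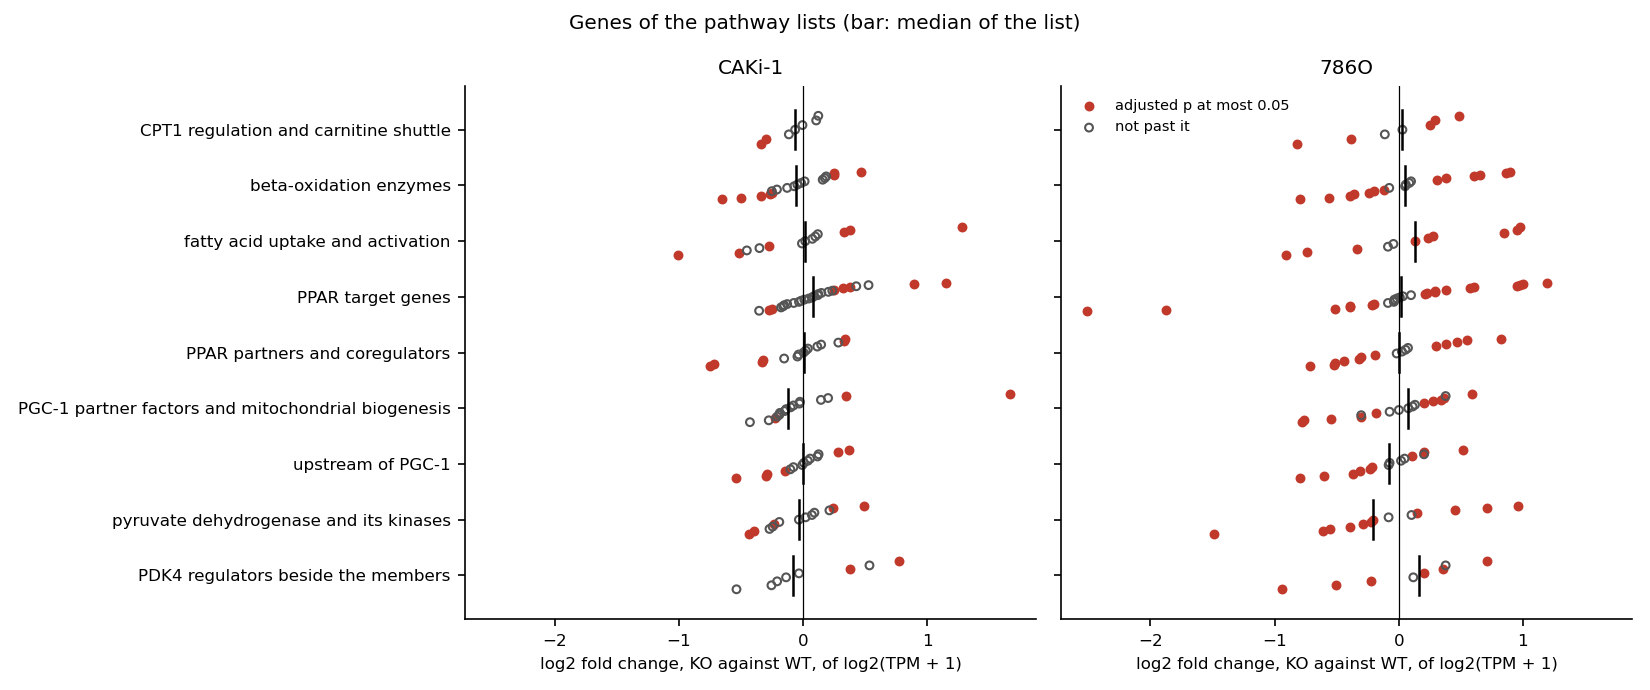
Log2 fold change, KO against WT (x axis), of every gene in the pathway lists (rows) in CAKi-1 and 786O, filled where limma's adjusted p was at most 0.05, with the median of each list as a bar. Members of every list lie on both sides of 0 and list medians lie between -0.20 and 0.16.

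Of the partners and coregulators of PPARs, 2 were higher and 4 lower of 15 in CAKi-1 (1 and 4 with KO 2, 3 and 5 only), and 5 were higher and 7 lower of 16 in 786O. The obligate partner RXRA rose in 786O from 29.2 to 52.4 TPM (log2 fold change 0.82), where RXRB fell from 33.7 to 24.6 TPM, and in CAKi-1 RXRB rose from 26.5 to 33.8 TPM. With neighbour shifts taken off, RXRA in 786O (0.27, limma adjusted p = 0.0013) and RXRB in CAKi-1 (0.21, limma adjusted p = 0.031) were smaller, and the 786O call of RXRB was lost (-0.08, limma adjusted p = 0.18). LPIN1, which assists PGC-1α, and PPRC1, a PGC-1 relative, fell in CAKi-1 (-0.72 and -0.74), while PPRC1 rose in 786O (0.47). Among partner factors of PGC-1 and genes of mitochondrial biogenesis, 3 of 16 passed in CAKi-1 (with KO 2, 3 and 5 only, 2 higher and 0 lower) and 10 of 17 in 786O, 5 in each direction. SOD2, the mitochondrial superoxide dismutase, rose in CAKi-1 from 663 to 1715 TPM (1.67, limma adjusted p = 0.027), a call lost with KO 2, 3 and 5 only (1.32, limma adjusted p = 0.12), and fell in 786O from 251 to 147 TPM (-0.76). TFAM, the factor that packs mitochondrial DNA, rose in 786O by 0.27 and ESRRA, a receptor that works with PGC-1α, by 0.20 (0.17 and 0.35 with neighbour shifts taken off).

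In CAKi-1, 6 of 14 genes listed as upstream of PGC-1 passed (2 higher and 4 lower, also with KO 2, 3 and 5 only). In 786O, 9 of the 14 passed (3 higher and 6 lower). The order of these genes and PGC-1 was not tested. The mitochondrial deacetylase SIRT3 rose in CAKi-1 (0.37, but 0.24 with KO 2, 3 and 5 only and 0.74 with neighbour shifts taken off) and fell in 786O (-0.60), and CREB1, which activates the PPARGC1A gene, fell in 786O (-0.37). Around pyruvate dehydrogenase, 5 of 13 genes passed in CAKi-1 (with KO 2, 3 and 5 only, 2 higher and 5 lower) and 11 of 13 in 786O (4 higher and 7 lower). PDP1, the phosphatase that reverses the action of the kinases, fell in both lines, from 12.9 to 9.52 TPM in CAKi-1 (-0.39) and from 88.3 to 30.7 TPM in 786O (-1.49). Of 8 further regulators of PDK4, 2 were higher in CAKi-1, FOXO3 (0.38) and STAT5A (0.78), and both fell in 786O (-0.22 and -0.94), where FOXO1 also fell (-0.51) and E2F1, the glucocorticoid receptor gene NR3C1 and ESRRA rose. With neighbour shifts taken off, FOXO3 in 786O turned to 0.05 (limma adjusted p = 0.31), FOXO1 was at -0.89 and E2F1 at 0.41. With KO 2, 3 and 5 only, FOXO3 (0.19, limma adjusted p = 0.010) and STAT5A (0.71, limma adjusted p = 0.0011) were still higher in CAKi-1, and NR3C1 was lower (-0.44, limma adjusted p = 0.00049).

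Over all 15 libraries, centred on the WT mean of each line, the genes whose log2(TPM + 1) was most like that of CPT1B were FBN1, COL7A1 and SLC7A7, with root mean square differences of 0.21, 0.21 and 0.22 from CPT1B, which itself lay 1.19 from its WT mean. For PPARGC1A they were SPINT1 (0.20), RRAGD (0.21) and DNAJC12 (0.23), beside 1.05. For PDK4 they were MYOCOS (0.098), TBKBP1 (0.10) and CCPG1 (0.10), beside 0.43.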

How the data were processed

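RNA-seq libraries of CAKi-1 (4 WT, 5 KO) and 786O (3 WT, 3 KO) were grouped by the genotype and replicate in the labels. The authors pseudoaligned reads to hg38 with Kallisto (versions not given in the sources used here) and deposited TPM per gene. The values name no unit, and TPM was inferred because each library sums to between 961437 and 973887, and 0 values are exactly 0. The labels state 3000000 reads per library, but each library's own count is not kept in TPM, so counting errors were not computed, low values rest on few reads at that depth, and tools for counts do not apply.

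From the deposited TPM, log2(TPM + 1) was compared per line with limma 3.58.1 (R 4.3.3), as a two-sided test with no filter, p-values being adjusted by Benjamini-Hochberg over every gene of the table, and between lines in a fit of 4 group means, since the tables are separate. Lines are otherwise only set side by side. Family shares were compared with exact two-sided permutation tests over all arrangements of the libraries (numpy 2.4.6). Coordinates are from GENCODE release 44. The limma step was tested on simulated data. Alternatives were another or no pseudocount, a filter on low values, limma's trend and robust options, quantile normalization, values centred on 25 expressed neighbours on each side, a replicate block, leaving out libraries and, chosen after seeing the data, CPT1 shares without CPT1B and its read-through row, and list genes and CHKB centred on neighbours or, for the lists, with CAKi-1 KO 2, 3 and 5 only.

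The members and lists were chosen with earlier results of these data known. Named genes were the members, ANGPTL4, CHKB, CHKB-CPT1B, PDK1 to PDK3, up to 4 genes per list, direction and line past both limits, and 3 most similar genes for CPT1B, PPARGC1A and PDK4. Other list genes were named after their values were seen.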

Additional observations from a re-analysis of the deposited data

Results flagged for a closer look

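The effects of the knockout in CAKi-1 and 786O differed by limma's test of the difference itself for 6 genes, given as CAKi-1 minus 786O on the log2 scale: CPT1A (-1.59), CPT1B (3.07), PPARA (0.95), PPARD (1.74), PPARGC1A (-1.12) and PPARGC1B (0.45). Of all shared genes 55.1% passed this test, a share near that of the 10 genes. The call of PPARGC1A was lost with a pseudocount of 0.1 or none (limma adjusted p = 0.15 and 0.36), and that of PPARGC1B after quantile normalization (0.40).

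Of 36 series of 4 or 5 CAKi-1 libraries, 2 held a library far from the others, and chance gives about 1 in 20. The PPARD share of the PPAR sum was 73.3% in WT 4 against 76.1% to 76.7% in the other WT libraries. The PDK4 share of the kinase sum was 7.11% in KO 1 against 3.78% to 4.57% in the other KO libraries.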

How the results depend on the processing

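The labels state 3000000 reads per library, but the TPM files do not keep each library's own count, so the counting error of values near or under 1 TPM, as for CPT1A, PPARGC1A, PPARGC1B and PDK4, was not computed. At the stated depth such values rest on few reads. The genes that passed in CAKi-1 numbered 5 to 9 when 1 library was left out (5 without WT 4), in 786O 6 to 7, and in the difference between lines 6 each time, against 30.4% to 39.9%, 55.9% to 56.8% and 51.1% to 56.3% of all genes. The sign of PPARG was not stable. In CAKi-1 it was -0.012 with neighbour shifts taken off, -0.14 with KO 1 and 4 only and -0.016 to 0.29 with 1 library left out, and in 786O -0.057 to 0.40 with 1 left out. Its difference between lines was -0.18 after quantile normalization, -0.45 with neighbour shifts taken off, -0.27 with KO 1 and 4 only and -0.26 to 0.20 with 1 left out. The difference of CPT1C turned to 0.21 with a pseudocount of 0.1, 0.38 with none and -0.25 to 0.0030 with 1 left out, and that of PDK4 to -0.075 after quantile normalization, -0.11 with KO 2, 3 and 5 only and -0.014 to 0.21 with 1 left out. With KO 1 and 4 only, the difference of PDK4 passed (0.53, limma adjusted p = 0.023), as did that of CPT2 (0.31, 0.022), and that of CPT1C with neighbour shifts taken off (-0.56, 0.025).

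With KO 2, 3 and 5 only, the CAKi-1 share differences in percentage points were 29.7 for CPT1B, -29.7 for CPT1C, 32.2 for PPARGC1A and 1.30 for PDK4 (exact p = 0.057 each, the smallest possible), and 0.774 for PPARG. With 1 library left out they were 3.11 to 6.14 for PPARA (past 0.05 without KO 3, exact p = 0.029) and -2.77 to 0.692 for PPARG in CAKi-1, and -0.631 to 0.834 for CPT1C in 786O. Without CPT1B in the sum, the CPT1A share rose by 8.87 points in CAKi-1 (exact p = 0.016) and that of CPT1C was -36.4 points in 786O.

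Replicate numbers did not pair the libraries (correlations of deviations -0.06, 0.12, -0.04 and 0.14 in CAKi-1 and -0.05, 0.02 and 0.01 in 786O). With a replicate block 7 genes passed in CAKi-1 (PPARA lost, limma adjusted p = 0.079), against 34.4% of all genes, and 6 in 786O (CPT2 lost, 0.055), against 57.5%. Over all genes, those past both limits numbered 543 in CAKi-1, 1077 with a pseudocount of 0.1, 1347 with none, 412 with KO 2, 3 and 5 only and 1084 with KO 1 and 4 only, and 1233, 2095 and 2342 in 786O for the first 3. For the difference between lines they were 1954, 3005 and 3106. Of the 786O genes past both limits 31.9% were higher, and 42.7% after quantile normalization.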
